A study of Drosophila melanogaster with 2 samples.

Results

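The genes described here make the outer skeleton of the fly or belong to a family expressed with it. They are the protein-coding genes of the Ensembl BDGP6.54 annotation whose symbols start with Cpr, Osi or Twdl, and they number 121 of 13945. The group as a whole was chosen by a readout, the near absence of binding peaks at these genes, so peak counts at the members are given as a description with no test. The symbol rule also catches Cpr itself, which encodes cytochrome P450 reductase, an electron donor of the endoplasmic reticulum and not a cuticle protein. It is kept apart below, which leaves 120 cuticle and Osiris genes, 70 of them Cpr, 25 Osi and 25 Twdl.

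The peaks come from chromatin immunoprecipitation followed by sequencing (ChIP-seq) of CG14711, a ZAD-type zinc finger protein, in whole adult female Drosophila melanogaster of unknown age. Both samples carry a transgene that fuses green fluorescent protein to the C terminus of CG14711, and the precipitation used an antibody to GFP per the description, although another label field names CG14711 as the antibody. The samples form 1 group of 2 biological replicates, numbered 3 and 4, from separate biosamples of the same donor line, with chromatin sheared by sonication to 200 to 800 bp. The labels give no second condition, stage or tissue. Depth is unknown because the peak lists hold no read counts. Each replicate list and the list called on pooled replicates hold 30000 peaks, and the IDR list holds 5654 (IDR, the irreproducible discovery rate, scores whether a peak ranks alike in both replicates). The IDR peaks are the 5654 pooled peaks of highest signal, and the weakest had a signal of 146. Signal is the authors' own value, on a scale that differs between lists, so ranks are given beside it. Since whole flies were used, a weak peak from binding in few cells and one from weak binding in many cells cannot be told apart.

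Cpr genes encode cuticle proteins with the Rebers and Riddiford domain, which binds chitin, and Tweedle (Twdl) genes encode another family of structural cuticle proteins. Osiris (Osi) genes encode insect transmembrane proteins made in epidermal, tracheal and other cuticle-secreting cells. All 3 families arose largely by tandem duplication, lie in dense gene clusters and are best known for bursts of expression when epidermal and tracheal cells lay down a new cuticle.

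The sequences just before the starts of the first and last genes of 3 large clusters are printed as examples, not as typical promoters. Each is the 100 bases upstream of the most upstream annotated start, read 5′ to 3′ on the gene's strand from the RefSeq copy of the Release 6 genome. Capitals mark the TATA box word TATAAA, which the TATA-binding protein recognises and which was found in 5 of the 6. In Osi20, TwdlM and TwdlD it lies 20 to 40 bases upstream, the usual place of a TATA box. Of the 120 cuticle and Osiris genes, 54 (45.0%) had it there. Osi24 lies at chr3R:6198811-6207678 and Osi20 at chr3R:6340095-6341424, both on the plus strand. TwdlM lies at chr3R:26619118-26620224 and TwdlD at chr3R:26640025-26641054, both on the plus strand. Cpr65Au lies at chr3L:6131242-6132109 on the minus strand and Cpr65Az at chr3L:6160814-6161589 on the plus strand. Cpr65Au and Cpr65Az were chosen after their values were seen.
Osi24: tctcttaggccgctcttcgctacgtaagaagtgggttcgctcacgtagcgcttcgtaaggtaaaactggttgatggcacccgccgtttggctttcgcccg
Osi20: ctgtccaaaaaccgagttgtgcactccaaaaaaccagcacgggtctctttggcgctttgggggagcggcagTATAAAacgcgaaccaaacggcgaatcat
TwdlM: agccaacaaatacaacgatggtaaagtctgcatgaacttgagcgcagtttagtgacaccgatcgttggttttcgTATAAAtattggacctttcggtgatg
TwdlD: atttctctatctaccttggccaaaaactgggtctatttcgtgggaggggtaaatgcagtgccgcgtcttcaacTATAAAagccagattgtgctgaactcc
Cpr65Au: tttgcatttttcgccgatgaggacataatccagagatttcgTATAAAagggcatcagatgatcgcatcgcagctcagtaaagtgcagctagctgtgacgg
Cpr65Az: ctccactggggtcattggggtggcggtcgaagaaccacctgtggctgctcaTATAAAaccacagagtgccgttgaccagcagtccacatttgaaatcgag
Of these 6 genes, 5 had no peak within 500 bp of a start in any of the 4 lists. Osi24 was the exception, with a weak pooled peak whose summit lay 151 bp upstream of its start.

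The next sequences are the summits themselves, on the plus strand and reaching up to 50 bases to either side, trimmed where an annotated untranslated region begins. They are shown because they hold the strongest peak beside a cluster (chr3L:21304528-21304608, at CG11309), the only IDR peak within 10 kb of the Osiris cluster (chr3R:6345912-6346000, at SmD2), the strongest pooled peak inside any cluster (chr3L:1829666-1829766, in Cpr62Ba), the only pooled promoter peak of an Osi gene (chr3R:6198610-6198710, at Osi24) and that of Cpr67B (chr3L:9405205-9405305). Capitals mark any of 5 words, on either strand: TATAAA, TATCGATA (the DNA replication-related element, DRE), GAGAG (bound by GAGA factor), AGTGTGAC (part of the core promoter element Motif 1) and CAACCCTG, which earlier work on these peaks found at IDR summits.
CG11309: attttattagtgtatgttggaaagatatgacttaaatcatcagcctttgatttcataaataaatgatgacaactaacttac
SmD2: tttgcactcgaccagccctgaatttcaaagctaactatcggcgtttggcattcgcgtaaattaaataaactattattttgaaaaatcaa
Cpr62Ba: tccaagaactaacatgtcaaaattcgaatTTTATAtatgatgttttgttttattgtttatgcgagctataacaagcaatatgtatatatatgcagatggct
Osi24 summit: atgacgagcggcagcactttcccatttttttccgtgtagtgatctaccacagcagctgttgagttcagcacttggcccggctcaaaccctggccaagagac
Cpr67B: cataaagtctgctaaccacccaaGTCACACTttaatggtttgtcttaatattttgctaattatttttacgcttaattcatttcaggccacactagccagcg
The Cpr62Ba summit held the TATA word within its gene body, and the Cpr67B summit held the Motif 1 word on the minus strand. The other 3 held none of the 5 words. Among the pooled promoter summits of cuticle and Osiris genes that were searched, only that of Cpr67B held a word. The promoter summits of Cpr62Ba, Cpr67Fb, TwdlG and Cpr64Ac and the weaker one of Cpr73D, not printed, held none.

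None of the 120 cuticle and Osiris genes had an IDR peak with its summit within 500 bp of a transcription start site (TSS), while 30.7% of all protein-coding genes did. In the pooled list, 9 of the 120 (7.50%) had such a promoter peak, against 60.9% of protein-coding genes, and these were 7 of 70 Cpr, 1 of 25 Osi and 1 of 25 Twdl genes. The replicates gave 8 of 120 in replicate 3 (background 59.8%) and 9 of 120 in replicate 4 (background 60.2%). Only 3 of the 120 (2.50%) had a promoter peak in both replicate lists, against 53.6% of protein-coding genes. No promoter peak in any of the 4 lists was found for 104 of the 120 (86.7%), against 32.5% of protein-coding genes. With the gene bodies added, 96 (80.0%) had no peak in any list, against 27.8%. The members are also short: their median length was 1203 bp, against 2166 bp over protein-coding genes. The part of length in the gene body counts was not tested. All these counts rest on the peaks that chose the group, and nothing is tested from them.

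The only gene with an IDR promoter peak among the 121 of the symbol rule was the P450 reductase gene Cpr (FBgn0015623, chr2L:6338836-6346280, plus strand). Its strongest promoter peak had a signal of 207 in the pooled list (rank 3646) and 155 in replicate 4 (rank 3228). In replicate 3 the strongest promoter peak of Cpr had a signal of 90.0 (rank 3372). The pooled summit lay 68 bp from a TSS of its neighbour Pez, a tyrosine phosphatase gene, and 97 bp from that of Cpr. A second IDR peak of signal 203 (rank 3735) lay 92 bp from another Cpr start. The member that shares only a name prefix with the cuticle genes thus stood inside the IDR threshold, and the strongest cuticle gene outside it, Cpr73D, stood at 93.2.

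The 9 cuticle and Osiris genes with a pooled promoter peak had weak ones, with signals from 29.6 to 93.2, while the median pooled peak outside the IDR list had 49.5. The strongest was at Cpr73D (FBgn0036680, chr3L:16939100-16957689), with a signal of 93.2 in the pooled list (rank 9399), 29.3 in replicate 3 (rank 14751) and 54.3 in replicate 4 (rank 10295). Its summit lay 37 bp from a TSS of Ogdh, which encodes a subunit of the mitochondrial oxoglutarate dehydrogenase complex, and 287 bp from that of Cpr73D. The peak is thus nearer to a metabolic gene than to the cuticle gene it was counted for.

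Cpr62Ba (FBgn0035279, chr3L:1824129-1831783) had a signal of 57.5 in the pooled list (rank 15451) and 48.3 in replicate 3 (rank 8162), and no promoter peak in replicate 4. Osi24 (FBgn0037409), the first gene of the Osiris cluster, had 44.1 in the pooled list (rank 19958), 25.8 in replicate 3 (rank 17003) and 20.9 in replicate 4 (rank 26106). Cpr51A (FBgn0033942) had 30.9 in the pooled list (rank 28325), 29.4 in replicate 3 (rank 14700) and 20.3 in replicate 4 (rank 26858). Cpr73D, Osi24 and Cpr51A were the 3 members with a promoter peak in both replicate lists. At Cpr51A the pooled summit lay 129 bp from a start and the replicate 4 summit 246 bp. These 2 summits were more than 100 bp apart, so they do not count as the same peak.

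Of the other 5, 3 had a replicate peak in replicate 4 alone and 2 in neither. Cpr67Fb (FBgn0036110) had 37.3 in the pooled list (rank 23562) and 19.3 in replicate 4 (rank 28136). Cpr67B (FBgn0035985) had 36.7 in the pooled list (rank 23991) and 18.9 in replicate 4 (rank 28597). TwdlG (FBgn0037225) had 35.2 in the pooled list (rank 25000) and 18.2 in replicate 4 (rank 29650), where the weakest peak of all had 18.0. Cpr97Eb (FBgn0039481), at 34.2 (rank 25708), and Cpr64Ac (FBgn0035512), at 29.6 (rank 29566), appeared in the pooled list only. The deposited −log10 q values of the strongest promoter peaks of these 9 genes ran from 0.639 at Cpr64Ac to 3.80 at Cpr73D, below the maximum of 4.15 that all IDR peaks share. A further 7 members, all Cpr genes, had a promoter peak in 1 replicate list and none in the pooled list. In replicate 3 these were Cpr12A at 20.3, Cpr65Ea at 17.1, Cpr67Fa1 at 16.1 and Cpr76Bc at 15.6. In replicate 4 they were Cpr78Cc at 29.0, Cpr72Eb at 20.5 and Cpr64Aa at 19.3.

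**Figure D1:**
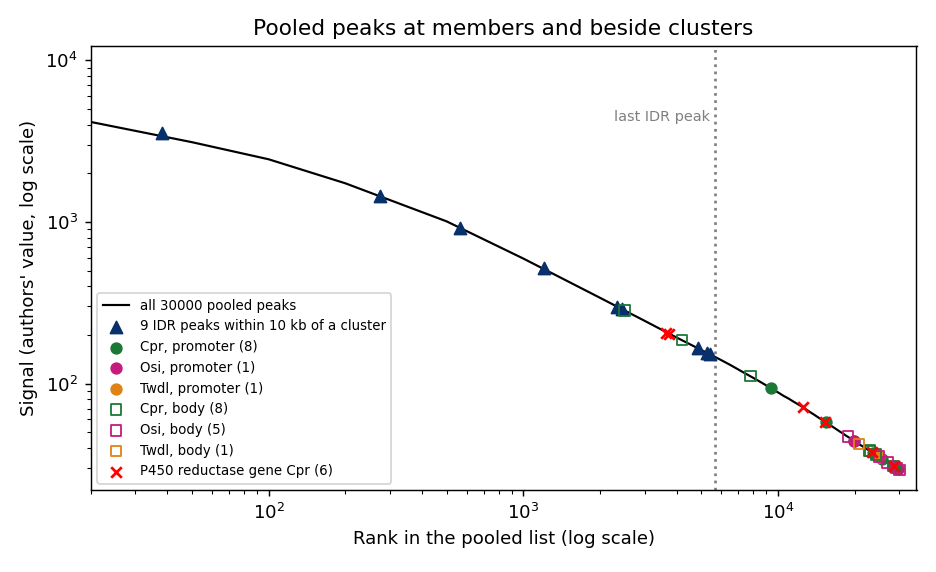
Signal of pooled peaks against their rank in the pooled list of 30000 (both log scales), with the black line for all pooled peaks and the dotted line at the last IDR peak. Filled circles are promoter peaks and open squares gene body peaks of Cpr, Osi and Twdl genes, crosses are peaks of the P450 reductase gene Cpr, and triangles are the 9 IDR peaks within 10 kb of a cluster: every circle lies right of the dotted line, and the triangles reach rank 38.

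Inside gene bodies, more than 500 bp from every start of the gene, 2 of 120 members had an IDR summit, against 8.4% of protein-coding genes, and 8 of 120 had a pooled summit, against 28.5%. Both IDR peaks lay nearer to the start of another gene than to that of the member. In Cpr51A (chr2R:14512559-14515211, minus strand) the summit lay 280 bp from a TSS of CG30197 and 1461 bp from its own, with a signal of 284 in the pooled list (rank 2499). The same peak had 253 in replicate 4 (rank 1785) and 55.8 in replicate 3 (rank 6781), so it ranked far higher in replicate 4. In Cpr73D the summit lay 62 bp from another start of Ogdh and 2251 bp from its own, with 186 in the pooled list (rank 4206), 126 in replicate 4 (rank 4080) and 68.9 in replicate 3 (rank 5034). Outside the IDR list, the strongest body peak was in Cpr62Ba, 774 bp from its start, with 111 in the pooled list (rank 7797), 75.7 in replicate 4 (rank 7311) and 21.3 in replicate 3 (rank 20792). The other pooled body peaks were weaker. Further ones lay in Cpr51A at 38.5, in Cpr62Ba at 36.3 and in Cpr73D at 30.4. Osi24 held 3, at 46.8, 32.5 and 29.2, Osi2 held 1 at 35.3 and Osi17 held 1 at 30.0. Cpr62Bb held 2, at 38.3 and 30.9, and TwdlE held 1, at 42.3, where it overlaps lectin-28C.

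Of the 120 genes, 85 fall into 14 clusters, each a run of at least 3 members with gaps of at most 20 kb, and 35 lie outside. The clusters span 356 kb together. Not a single IDR summit lay inside any of them, where the mean density of the chromosome arms, 4.23 per 100 kb, would give 15.1. The pooled list had 16 summits inside (4.49 per 100 kb, against 22.5 over the arms), and replicates 3 and 4 had 15 each. The clusters were denser in genes than the arms and held 35.1 coding TSSs per 100 kb, against 14.7 over the arms. The 16 pooled peaks inside had a median signal of 35.4, none reached the maximum −log10 q, and the strongest stood at rank 7797. With a summit within 100 bp counted as the same peak, 2 of the 16 were found in both replicate lists, 7 in 1 and 7 in neither. In 7 of the 14 clusters the pooled list had no summit at all.

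The largest cluster holds 21 Osi genes from Osi24 to Osi20 over 143 kb (chr3R:6198811-6341424). Its 5 pooled summits lay in Osi24, Osi2 and Osi17, with signals from 29.2 to 46.8. Replicate 3 had 1 summit inside and replicate 4 had 3. The nearest IDR summit to the left was 336 kb away, while to the right one lay 4.53 kb beyond Osi20, at the start of SmD2, a core component of spliceosomal snRNPs. The resulting stretch of 484 kb without an IDR summit was the 4th longest of 5648 on the arms. Osi1, which lies to the left of the cluster (chr3R:6173549-6174971), was 172 kb from its nearest IDR summit, the longest distance of any member.

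Among the Tweedle genes, the largest cluster holds 12 genes from TwdlM to TwdlD over 21.9 kb (chr3R:26619118-26641054). It was empty in all 4 lists, and so were the 10 kb to either side. The nearest IDR summits were 50.5 kb to the left and 73.3 kb to the right. The 3 genes from TwdlF to TwdlV had a single pooled summit, the one at TwdlG. The 4 genes from TwdlX to Twdlalpha on the X chromosome had none in the pooled list or in replicate 3 and 1 in replicate 4.

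The Cpr genes form the other 10 clusters. The one with most members, 8 from Cpr49Aa to Cpr49Ah (chr2R:12376626-12415170), had a single pooled summit, of signal 35.4, at the non-member CG8501. The 7 genes from Cpr65Au to Cpr65Az share 30.3 kb (chr3L:6131242-6161589) with 11 other coding genes, mainly larval cuticle protein (Lcp65) genes, and no pooled summit lay among them. The cluster from Cpr62Ba to Cpr62Bc had 5 of the 16 pooled summits, as many as the Osi cluster. In the cluster from Cpr67Fa1 to Cpr67Fb 2 were found, and the stronger one, 661 bp from the Cpr67Fb start, had 93.8 in the pooled list (rank 9343), 67.5 in replicate 4 (rank 8268) and 32.1 in replicate 3 (rank 13301). Besides the members, 29 other coding genes lie wholly inside the clusters: 0 of these had an IDR promoter peak and 1, CG8501, had a pooled one.

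**Figure D2:**
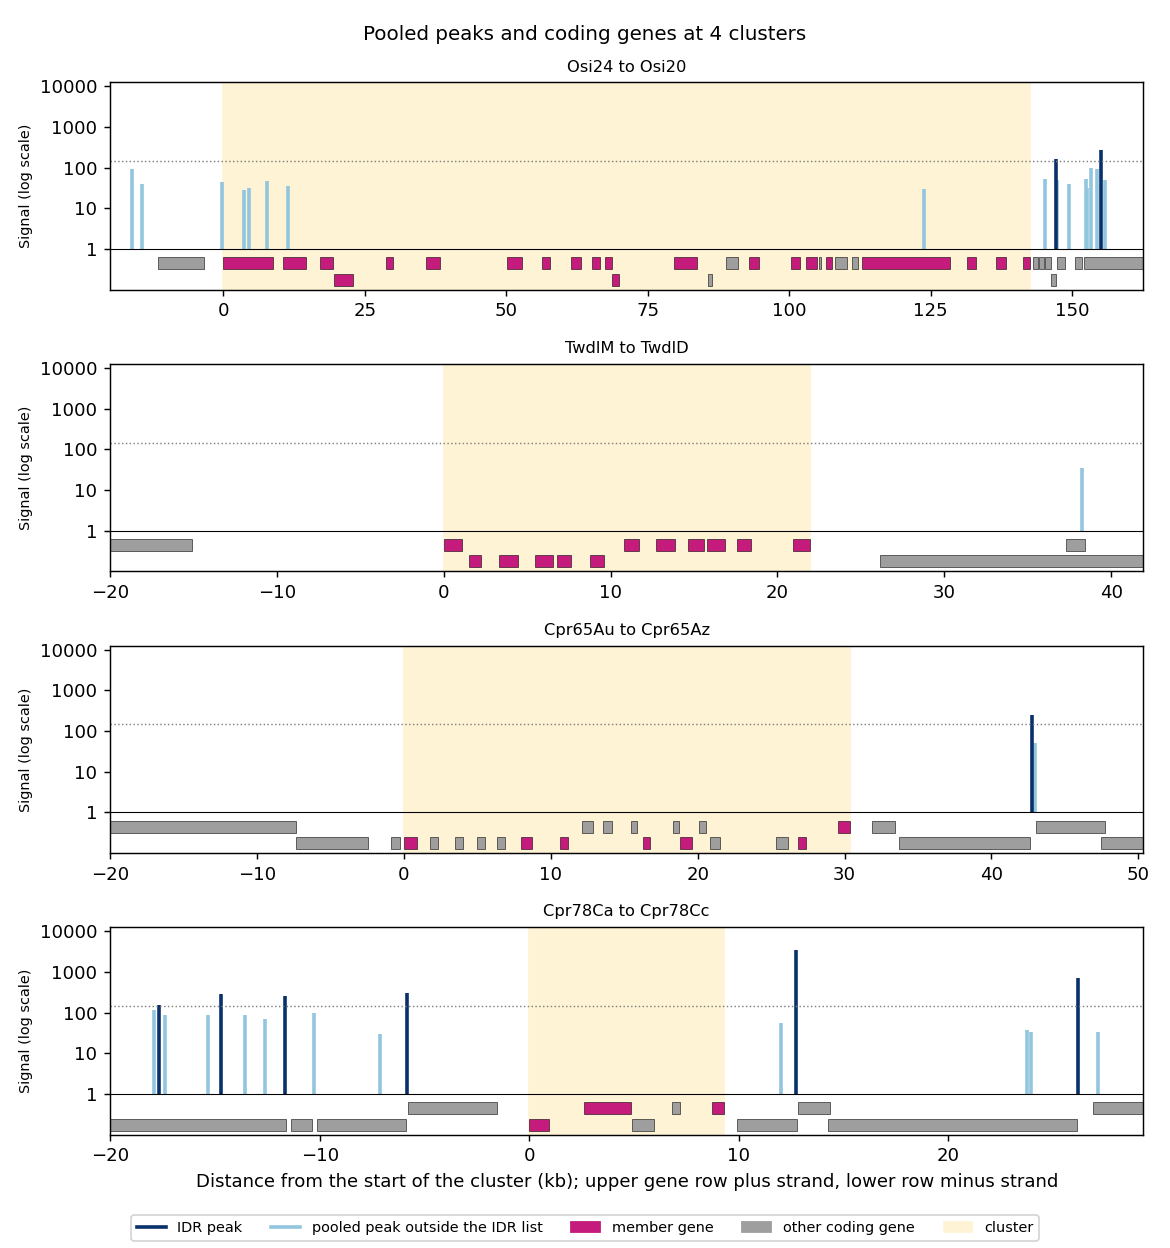
Signal of pooled peaks (vertical bars, log scale) against distance from the start of 4 clusters in kb, with 20 kb to either side, coding genes below (upper row plus strand, lower row minus strand) and a dotted line at the lowest IDR signal. No dark bar (IDR peak) stands in the shaded clusters, and the strongest one beside them, 3577, stands to the right of Cpr78Cc.

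IDR peaks did occur at the borders. Within 10 kb of the 28 cluster ends lay 9 IDR summits, at 7 ends of 6 clusters, 1 of them on the left and 6 on the right as the arm is numbered. By distance, the IDR density was 3.21 per 100 kb at 0 to 10 kb, 5.71 at 10 to 20 kb, 6.79 at 20 to 50 kb and 5.07 at 50 to 100 kb. Pooled summits went from 4.49 per 100 kb inside to 22.1, 30.0, 33.1 and 30.0 in the same zones. The flanks were rich in start sites too, with 24.3 coding TSSs per 100 kb in the first 10 kb and 29.6 in the next. In the first 10 kb outside a cluster the pooled density was thus near the 22.5 of the arms. The IDR density there, 3.21 against the 4.23 of the arms, rests on only 9 summits, and the difference was not tested. Of these 9, only 2 lay within 5 kb of a cluster end.

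The border peaks lay mostly at the starts of other genes. The strongest stood 3407 bp beyond Cpr78Cc, 80 bp from a TSS of CG11309 and also within 500 bp of CG7632 (chr3L:21304357-21304863). It had a signal of 3577 in the pooled list (rank 38), 1271 in replicate 3 (rank 48) and 2318 in replicate 4 (rank 31), so both replicates placed it among their 50 strongest peaks. On the other side of that cluster, a peak between pzg, which encodes a chromatin-associated zinc finger protein, and CG12974 had 299 in the pooled list (rank 2328), 70.2 in replicate 3 (rank 4900) and 234 in replicate 4 (rank 1962). The cluster from Cpr78Ca to Cpr78Cc was the only one with IDR peaks at both ends.

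Right of the cluster from Cpr47Ea to Cpr47Eg, 1 peak region held 2 summits at the starts of CG9062 and CG13220. The first had a signal of 1444 in the pooled list (rank 274), 418 in replicate 3 (rank 387) and 1018 in replicate 4 (rank 243). The second had 924 in the pooled list (rank 565), 188 in replicate 3 (rank 1140) and 699 in replicate 4 (rank 465). Right of Twdlalpha, both peaks lay in goe. One was at its start, with 522 in the pooled list (rank 1205), 225 in replicate 3 (rank 917) and 321 in replicate 4 (rank 1350). The other was 798 bp from it, with 290 in the pooled list (rank 2437), 43.8 in replicate 3 (rank 9257) and 292 in replicate 4 (rank 1502).

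The remaining 3 border peaks were near the threshold. That at SmD2 right of Osi20 had 165 in the pooled list (rank 4840), 45.0 in replicate 3 (rank 8962) and 103 in replicate 4 (rank 5134). A peak inside CG43367, right of the cluster from Cpr64Aa to Cpr64Ad, had 155 in the pooled list (rank 5285), 56.4 in replicate 3 (rank 6691) and 99.5 in replicate 4 (rank 5350), and lay 1232 bp from the nearest start. A peak at the start of CG8520 right of Cpr49Ah had 151 in the pooled list (rank 5433) and 104 in replicate 4 (rank 5076), and no summit within 100 bp in replicate 3.

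**Figure D3:**
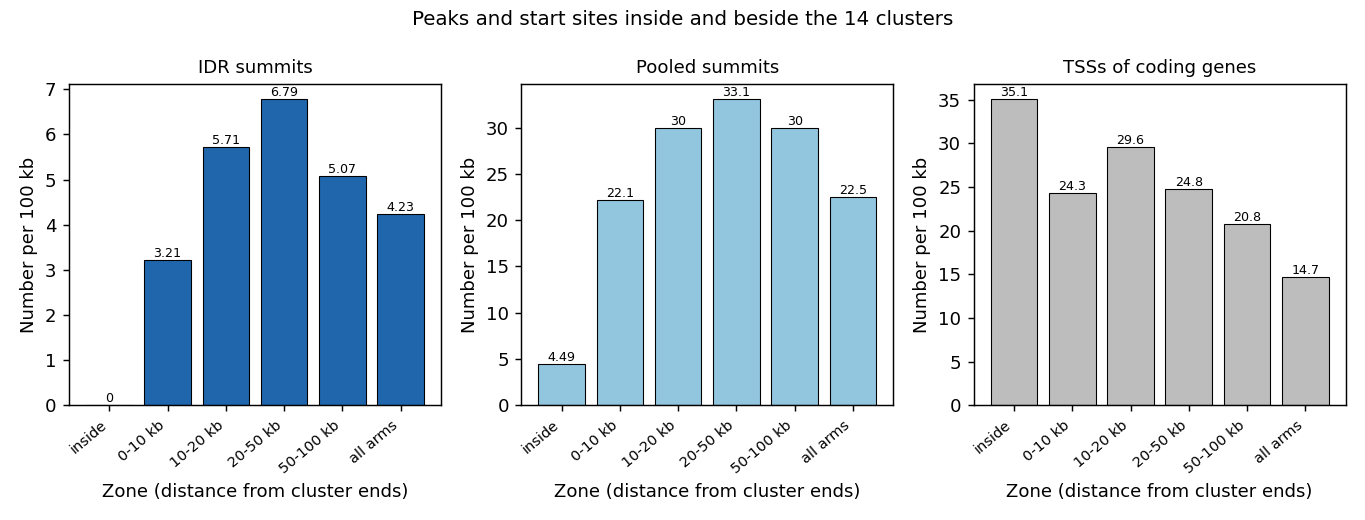
Number per 100 kb of IDR summits (left), pooled summits (middle) and coding TSSs (right) inside the 14 clusters, in zones of rising distance from their ends, and over all arms. IDR summits were 0 inside and 3.21 per 100 kb in the first 10 kb, while TSSs were densest inside, at 35.1 per 100 kb.

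Measured from each gene, the median distance between a start and the nearest IDR summit was 22.0 kb for the 120 members and 4.31 kb for protein-coding genes. By family the median was 18.7 kb for Cpr, 33.6 kb for Twdl and 77.2 kb for Osi. Within 10 kb of a start, 25 of the 120 (20.8%) had an IDR summit, against 65.9% of protein-coding genes. The smallest distance was 1.46 kb, at Cpr51A. Clustered members stood farther off (median 26.0 kb) than those outside clusters (13.0 kb). The clusters held no IDR summit, so the one nearest to a clustered member had to lie beyond a cluster end. Successive IDR summits to either side of a cluster were 18.5 kb (around Cpr78C) to 484 kb (around the Osi genes) apart, with a median of 79.0 kb, while the median gap over the arms was 6.23 kb. In 11 of 14 clusters the gap was above 54.0 kb, the 90th percentile of all gaps. A gap that holds a cluster, however, cannot be shorter than it. Any fixed place also falls in a long gap more often than in a short one. The median and percentile over gaps are thus no yardstick for these clusters, and the difference was not tested.

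**Figure D4:**
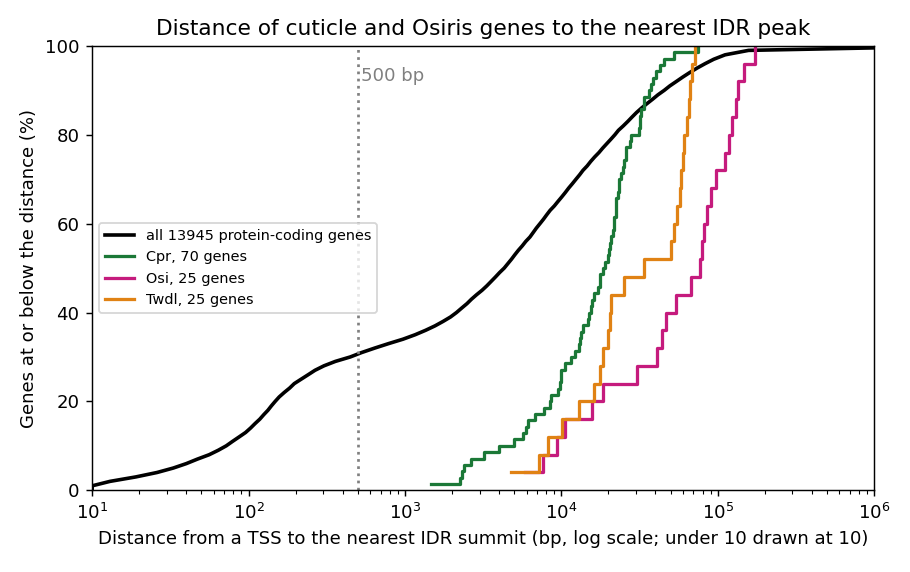
Share of genes (%) whose start lies at or below a given distance (bp, log scale) from the nearest IDR summit, for all 13945 protein-coding genes and for the 70 Cpr, 25 Osi and 25 Twdl genes, with a dotted line at 500 bp. All 3 family curves start beyond 1 kb, and the Osi curve lies farthest right, with a median of 77.2 kb.

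The IDR peaks nearest to the members outside clusters were mostly at or in genes that are not members. Some of these members still lie near others of the group. Cpr97Eb stands in a run of fewer than 3, and Osi1 lies more than 20 kb from the Osi cluster. For Cpr92A and Cpr66D the nearest IDR peak lay between genes, 597 bp and 3037 bp from the closest start, and for Cpr51A it was the peak within its own span. Cpr67B lay 2373 bp from an IDR peak at eIF4E1, the gene of the main mRNA cap-binding protein, which had a signal of 761 in the pooled list (rank 728), 243 in replicate 3 (rank 828) and 529 in replicate 4 (rank 704). TwdlW lay 7212 bp from a peak between Det and m-cup, with 864 in the pooled list (rank 621), 345 in replicate 3 (rank 502) and 525 in replicate 4 (rank 714). The strongest peak of this kind stood at amon, a prohormone convertase gene 20790 bp from TwdlQ, with 1107 in the pooled list (rank 428), 379 in replicate 3 (rank 445) and 739 in replicate 4 (rank 418). Cpr66Cb lay 2334 bp from a peak at Pex2, a peroxisome biogenesis gene, with 197 in the pooled list (rank 3894), 64.0 in replicate 3 (rank 5626) and 138 in replicate 4 (rank 3635). These neighbours were chosen after their values were seen.

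Cuticle and Osiris genes also had the start of another gene close by less often than protein-coding genes as a whole, which the rule did not use. Another gene's TSS lay within 1 kb of 14 of the 120 (11.7%), against 48.2% of protein-coding genes. An IDR promoter peak was found at 45.8% of protein-coding genes with such a neighbour and at 16.6% of those without. Among the members it was 0 of 14 and 0 of 106. Spacing moved with the peaks over all genes, and its part in the counts of the members was not tested.

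The promoters of the members were rich in TATA boxes. In the window from 20 to 40 bases upstream of the most upstream start, TATAAA on the coding strand was found in 54 of 120 members (45.0%), against 7.06% of all protein-coding promoters. It was in 31 of 70 Cpr (44.3%), 9 of 25 Osi (36.0%) and 14 of 25 Twdl genes (56.0%), as printed above for Osi20, TwdlM and TwdlD. Over all protein-coding genes, an IDR promoter peak was found at 80 of 985 genes with this TATA box (8.12%) and at 32.4% of those without. Among the members it was 0 of 54 with the box and 0 of 66 without, and a pooled promoter peak was found at 2 of 54 and 7 of 66. Promoter type moved with the peaks over all genes, and its part in the counts of the members was not tested.

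Other words were searched on both strands in the 250 bases before to 50 after the start. CAACCCTG was in 0 of 120 members, in 1.26% of all protein-coding promoters of that length and in 3.32% of those with an IDR peak. DRE (TATCGATA) was in 0.833% of members against 9.36%, and AGTGTGAC was in 0.833% against 6.62%. GAGAG was in 34.2% against 29.7%, and TATAAA anywhere in the window was in 69.2% against 45.8%. Inside the clusters CAACCCTG occurred at 2 places (0.562 per 100 kb, against 1.24 over the arms), both on 3R. Neither of them lay within 50 bp of a pooled summit. Over the arms, 9.58% of the 1660 places lay that close to an IDR summit. Inside the clusters none could, because no IDR summit lay there, so the 2 places allow no comparison. The GC content of the promoter window was 45.8% ± 6.22 (SD, n = 120 genes) for members and 39.1% ± 7.74 (SD, n = 13945) for protein-coding genes. By family it was 49.6% ± 6.40 (SD, n = 25) for Osi, 45.1% ± 6.01 (SD, n = 70) for Cpr and 43.9% ± 5.23 (SD, n = 25) for Twdl, so the Osi promoters were the richest in GC. The 100 bp around IDR summits had 34.5%, and whole clusters had 43.2%, near the 42.2% of the arms. These shares describe the windows and draw nothing about any factor.

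**Figure D5:**
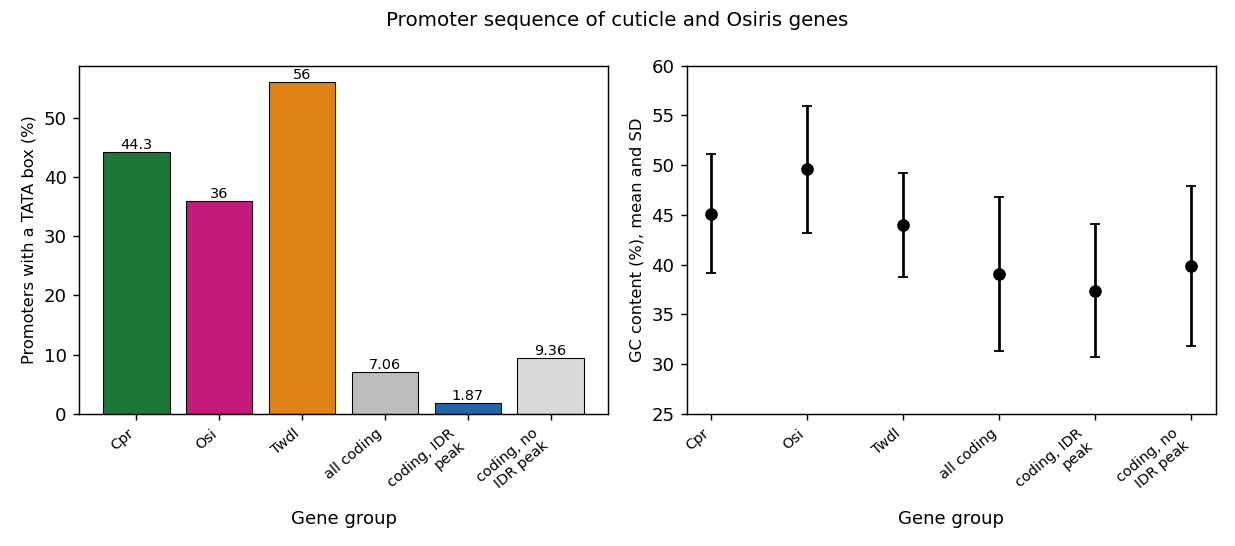
Share of promoters with a TATA box 20 to 40 bases upstream of the start (left, %) and mean GC content of the 300 bases at the start with its SD over genes (right, %), for Cpr, Osi and Twdl genes, all protein-coding genes, and those with or without an IDR promoter peak. The 3 families stand at 36.0 to 56.0% with the box, against 1.87% of genes with an IDR peak.

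Near-identical gene copies can lose reads that map to more than 1 place, so repeated sequence was counted in the 500 bp to either side of each start. In 108 of 120 members (90.0%) no stretch of 32 bases recurred in the genome, close to the 89.3% of protein-coding genes. The exceptions include the twin genes Cpr65Ax1 and Cpr65Ax2, with 76.2% and 72.1% of such stretches repeated, and TwdlL (16.6%), TwdlK (16.3%), TwdlJ (14.9%) and TwdlM (10.4%). The absence of peaks at these 6 is uncertain, since the authors' handling of such reads is not given in the sources used here. All 25 Osi promoters were free of repeats, as were 64 of 70 Cpr (91.4%) but only 19 of 25 Twdl promoters (76.0%). More than 10% of stretches were repeated at 4 of 25 Twdl genes (16.0%), against 4.27% of protein-coding genes. These 4 lie in the cluster from TwdlM to TwdlD, which was empty in all 4 lists.

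Among other genes of cuticle formation, the lists of structural proteins had few promoter peaks. The IDR shares of the ecdysone and epidermal lists were near that of all protein-coding genes. Of 29 Rebers and Riddiford genes with older symbols, 11 of which lie inside the clusters, 2 had an IDR and 3 a pooled promoter peak. Both IDR cases, the larval cuticle genes Lcp2 and Lcp3, share a single peak between them, with a signal of 1042 in the pooled list (rank 470), 436 in replicate 3 (rank 367) and 618 in replicate 4 (rank 563). Of 26 other cuticle proteins 0 had an IDR and 4 a pooled promoter peak. Of 34 genes of chitin synthesis and modification 5 had an IDR and 23 a pooled one, led by the hexosaminidase gene Hexo2 at 801, the chitinase gene Cht11 at 701 and Idgf6, of the chitinase-like growth factors, at 457. Of 17 tanning genes 1 had an IDR peak, speck at 240, an N-acetyltransferase gene of dopamine metabolism, and 8 had a pooled one. Of 20 ecdysone genes, which time the moults, 7 had an IDR and all 20 a pooled promoter peak, led by usp, a subunit of the ecdysone receptor, at 1455, the nuclear receptor gene Eip75B at 481 and the repressor gene Blimp-1 at 278. Of 8 epidermal regulators 2 had an IDR peak, ovo at 661 and trh at 150, and all 8 had a pooled one. These counts stand against the 30.7% (IDR) and 60.9% (pooled) of all protein-coding genes given above, and no list was tested. Another gene's start lay 0 bp from a start of usp, 24 bp from one of ovo and 253 bp from one of Cht11. The other genes named here with an IDR peak had none within 500 bp. Which gene such a peak belongs to was not tested.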

How the data were processed

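The labels describe ChIP-seq of 2 replicates with 4 deposited peak lists in dm6 coordinates: 1 per replicate, 1 on pooled replicates and the IDR list. The deposited signal and −log10 q columns are the authors' values. The control was not analysed here, and read depth is unknown. Which aligner and peak caller were used, with what versions and what IDR cut-off, is not given in the sources used here. Summits were taken as peak start plus offset, and peaks were ranked by signal within a list. A promoter peak has its summit within 500 bp of any TSS of a gene. Promoter sequence came from the RefSeq genome, in which all 121 members have the same start and end as in Ensembl. Members, lists and words were chosen with earlier results of these data known. Named genes are those with IDR peaks, the 9 cuticle and Osiris genes with a pooled promoter peak and those at the 9 IDR border peaks. The plan allowed up to 10 peaks of each kind. Named genes also include the first and last genes of each family's cluster with most members, and the 3 strongest peaks of each list. Other genes named (Cpr65Au and Cpr65Az, members with peaks in 1 replicate or in gene bodies, repeated copies) were chosen after their values were seen. Symbols of 4 list genes (Knk2, Knk3, hn, phm) did not match. No test was run, and values cover these 2 samples only. Assignment of summits was tested on simulated data. Python 3.11.15, pandas 2.3.3, numpy 2.4.6 and matplotlib 3.10.9 were used.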

Additional observations from a re-analysis of the deposited data

How the results depend on the processing

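The number of members with an IDR promoter peak was 1, the P450 reductase gene Cpr. It fell to 0 without that gene, without members that have another TSS within 1000 bp, and with only the IDR peaks above the median signal, and it was 0 without Cpr in a window of 1000 bp, an alternative chosen after seeing the data. It was 1 with either replicate left out, using the 5654 best peaks of the other. Pooled promoter peaks were found at 10 members and at 6 with a window of 250 bp, with 7 to 13 under the other settings and 9 to 10 with a replicate left out. IDR gene-body peaks were found at 2 members, at 1 above the median signal, at 9 in the pooled list and at 1 to 2 with a replicate left out: without replicate 4, Cpr51A had none. IDR summits inside clusters were 0, became 1 when clusters were joined over gaps of 50 kb, which adds a cluster from TwdlT to Cpr97Eb, and were 0 with either replicate left out. IDR summits within 10 kb of a border were 9, and 2 within 5 kb, with 7 to 9 when a replicate was left out. No paired analysis was possible because there is 1 group. Depth is unknown, so whether a missing peak lies below detection cannot be told.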

Other observations

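Outside the IDR list, the strongest pooled peaks within 10 kb of a cluster fell just short of the signal of the weakest IDR peak, and 3 of them reached the maximum −log10 q. One lay 853 bp left of the cluster from Cpr76Ba to Cpr76Bd and 1633 bp from the start of Cpr76Ba, with a signal of 136 in the pooled list (rank 6183), 47.5 in replicate 3 (rank 8355) and 61.5 in replicate 4 (rank 9064). No other gene start was nearer to it than that of Cpr76Ba. Another lay 168 bp from a start of ringer, left of the cluster from Cpr72Ea to Cpr72Ec, with 128 in the pooled list (rank 6665), 63.4 in replicate 3 (rank 5700) and 69.3 in replicate 4 (rank 8033). The third lay in CG32572, left of TwdlX, with 126 in the pooled list (rank 6782), 33.2 in replicate 3 (rank 12825) and 92.7 in replicate 4 (rank 5811). These peaks were chosen after their values were seen.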
